A study of Mus musculus with 16 samples.

Results

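The 10 genes described here encode chaperones, folding enzymes and regulators of the endoplasmic reticulum (ER): Hspa5, Herpud1, Xbp1, Dnajb9, Sdf2l1, Hsp90b1, Pdia4, Calr, Creld2 and Manf. They were taken by symbol from a count table of 24982 entries, of which 13775 had enough counts to be tested, and all 10 were among those tested. The list was chosen by earlier results of the same libraries, in which the levels of Herpud1 and of the chaperone genes were known by genotype and by the number in each sample's title. The values by genotype and by number are therefore a description.

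Total RNA of the left ventricle was sequenced from 16 C57BL/6 mice, 1 library per mouse. In 8 knockout mice (4 females, 4 males) Tln1 was deleted in cardiac fibroblasts on a Tln2-null background, and the other 8 mice (4 females, 4 males) were Tln2-null with Tln1 left intact. Tln1 and Tln2 encode talins, which couple integrins to actin. All 16 mice, the Tln2-null ones included, were given intraperitoneal tamoxifen for 5 days and, after 2 weeks, angiotensin II by osmotic pump for 8 weeks, so the libraries hold neither a mouse with Tln2 nor one without the hormone. The sources used here state neither the Cre driver nor the deleted exons nor the ages of the mice. The titles carry numbers between 1 and 18, spread over both genotypes, whose meaning is likewise unstated.

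Proteins that enter the secretory pathway are folded in the ER lumen by chaperones, oxidoreductases and lectins. When unfolded proteins accumulate there, the sensors Ire1, Perk and Atf6 start the unfolded protein response, which raises the transcription of chaperone genes and of genes for ER-associated degradation, the route by which misfolded proteins are sent to the proteasome. In cardiac muscle the ER is continuous with the sarcoplasmic reticulum, which stores the calcium for contraction, and several of these chaperones bind calcium. Atf6 and the spliced form of Xbp1 are known to act through ER stress response elements in the promoters of many of these genes.

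The promoter windows below are shown because the ER stress response element found in Herpud1 differs from that found in Hspa5, Hsp90b1, Calr and Creld2. Hspa5 lies at chr2:34771970-34777547 and Herpud1 at chr8:94386438-94395377 (GENCODE M21, plus strand), and all 10 genes are annotated as protein coding. RefSeq promoters of GRCm38.p6, from 250 bases before to 50 after the start of each gene, were found for 9 of the 10 genes. The exception was Manf, whose promoter was therefore not searched. Both strands were searched for the ER stress response element ERSE (CCAAT, 9 bases of any kind, CCACG), for ERSE-II (ATTGG, 1 base of any kind, CCACG), for the core of the unfolded protein response element (TGACGTG) and for an E-box (CACGTG). The windows run 5′ to 3′ on the strand of the gene, and capitals mark the matches on either strand. For Hspa5 and Dnajb9 the RefSeq start lies inside the GENCODE interval of the gene, so part or all of the window does too.
Hspa5, chr2:34771918-34772058, plus strand: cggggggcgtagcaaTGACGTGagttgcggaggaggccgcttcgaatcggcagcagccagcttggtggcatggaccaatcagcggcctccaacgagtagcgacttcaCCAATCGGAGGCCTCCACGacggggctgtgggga
Hsp90b1, chr10:86705518-86705671, minus strand: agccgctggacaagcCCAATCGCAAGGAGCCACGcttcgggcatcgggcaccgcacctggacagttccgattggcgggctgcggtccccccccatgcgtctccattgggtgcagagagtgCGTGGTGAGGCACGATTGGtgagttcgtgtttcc
Calr, chr8:84847060-84847170, minus strand: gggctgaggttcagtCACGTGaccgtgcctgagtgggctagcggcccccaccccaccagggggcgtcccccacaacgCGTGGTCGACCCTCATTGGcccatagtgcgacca
Creld2, chr15:88819505-88819553, plus strand: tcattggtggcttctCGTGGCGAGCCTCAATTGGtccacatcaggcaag
Dnajb9, chr12:44210155-44210190, minus strand: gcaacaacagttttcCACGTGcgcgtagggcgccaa
Herpud1, chr8:94386362-94386402, plus strand: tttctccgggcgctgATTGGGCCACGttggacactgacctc

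ERSE stood in the promoters of Hspa5, Hsp90b1, Calr and Creld2, 4 of the 9, against 0.119% of all 32851 promoters of the same length. The Hsp90b1 promoter held a pair of them, 1 on each strand. ERSE-II stood in the Herpud1 promoter alone among the 9, against 0.0365% of all promoters. The TGACGTG core was found in Hspa5 (2.01% of all promoters), and CACGTG in Dnajb9 and Calr (7.15%). CCAAT, which is part of both ERSE and ERSE-II, was in 8 of the 9 promoters, all but that of Xbp1, and in 37.4% of all promoters. A match describes letters in these windows and not the binding of a factor.

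Library totals lay between 11161766 and 19221673 counts. Tln1 had 274 ± 31.3 CPM (the count scaled to the library's TMM-adjusted total) in knockout and 289 ± 20.7 CPM in Tln2-null ventricles, and Tln2 67.1 ± 2.32 and 66.8 ± 7.25 CPM (SD, n = 8 each). Gene totals of whole ventricle check neither deletion where the deleted exons and the share of fibroblasts are unknown. Replicate 8 of each genotype stood apart in its clock genes: Arntl was at 27.1 CPM in knockout replicate 8 and 28.4 CPM in Tln2-null replicate 8, against 3.66 to 8.44 CPM in the other 14 libraries. Tln2-null replicate 5 stood apart in the stress genes Hspa1a (85.9 CPM, against 2.88 to 8.91 in the other 15) and Atf3 (89.6 CPM, against 2.67 to 25.1). In 4 libraries labelled female (3 knockout, 1 Tln2-null) Y-linked counts came to between 1.11% and 2.88% of the male mean, against at most 0.391% in the other females. Summed markers of cardiomyocytes were 48081 ± 2443 CPM in knockout and 45940 ± 1177 CPM in Tln2-null ventricles, and those of fibroblasts 1619 ± 368 and 2076 ± 474 CPM, and none of the listed defining markers of either type was at 0 in every library.

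The most abundant of the 10 transcripts per length were Herpud1 and Hspa5. On the scale of CPM per kilobase of annotated exon (GENCODE M21), averaged over the 16 libraries, Herpud1 was at 176 and Hspa5 at 167, followed by Hsp90b1 at 126 and Calr at 120. Dnajb9 (30.3), Xbp1 (25.3), Pdia4 (17.0), Creld2 (14.2), Manf (13.9) and Sdf2l1 (6.37) were several times lower. By genotype the order of neighbours was not fixed beyond their spread: Herpud1 had 177 ± 51.1 and 176 ± 69.3 CPM per kilobase in knockout and Tln2-null ventricles, and Hspa5 had 169 ± 21.9 and 165 ± 31.4 (SD, n = 8 each). Exons of Hsp90b1 overlap those of other annotated genes on both strands by up to 270 bases, and those of Manf by up to 166 bases, so their counts may hold reads of these neighbours.

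None of the 10 genes passed the test of a difference between genotypes. By edgeR's quasi-likelihood test with Benjamini-Hochberg adjustment their adjusted p ran between 0.935 and 0.999, and none had an unadjusted p under 0.05. Across the transcriptome 0 of 13775 genes (0%) passed, with 700 at an unadjusted p under 0.05, and DESeq2 passed 17 genes, none of them among the 10. Log2 fold changes of knockout over Tln2-null were above 0 for 4 genes and below 0 for 6, with a median of -0.04 against a median of -0.00 over all genes tested. In whole ventricle, fewer cells of a type and less RNA per cell cannot be told apart.

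Among the lumenal chaperones of the heat shock families, Hspa5, which encodes BiP, the central ER chaperone that also holds the sensors inactive, ran between 627 and 863 CPM with a median of 679 in knockout ventricles. In Tln2-null ventricles Hspa5 ran between 547 and 934 CPM with a median of 654. The knockout range lay inside the Tln2-null range, and the log2 fold change was 0.03 ± 0.11 (SE, as for all fold changes here). Hsp90b1, which encodes Grp94, the ER form of Hsp90, had a lowest, median and highest level of 452, 514 and 572 CPM in knockout and 411, 484 and 649 CPM in Tln2-null ventricles. Its log2 fold change was 0.05 ± 0.08, again with the knockout libraries inside the Tln2-null range.

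The partners of BiP had fold changes of both signs. Dnajb9, which encodes the J-domain co-chaperone ERdj4, had 70.2, 81.0 and 88.4 CPM (lowest, median, highest) in knockout and 64.7, 71.8 and 86.2 CPM in Tln2-null ventricles. Dnajb9 had the lowest unadjusted p of the 10 (0.0788), with a log2 fold change of 0.12 ± 0.06 that did not pass (adjusted p = 0.935, edgeR's quasi-likelihood test). Sdf2l1, a component of ER chaperone complexes, was the scarcest at 4.78, 6.47 and 8.60 CPM in knockout and 4.70, 7.80 and 10.3 CPM in Tln2-null ventricles, with a log2 fold change of -0.21 ± 0.15. Sdf2l1 rested on 59 counts in its smallest library, and a count of 3 was worth between 0.151 and 0.268 CPM in these libraries. Manf, a BiP-binding factor of the ER that can be secreted, had 40.7, 43.9 and 57.6 CPM in knockout and 32.5, 55.1 and 65.9 CPM in Tln2-null ventricles. The Tln2-null libraries spread wider for Manf, at 52.0 ± 12.5 CPM, than the knockout libraries at 46.3 ± 6.04 CPM (SD, n = 8 each), and the log2 fold change was -0.16 ± 0.13.

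The folding enzyme Pdia4, a protein disulfide isomerase, had 33.4, 40.9 and 44.7 CPM in knockout and 29.5, 41.6 and 54.0 CPM in Tln2-null ventricles. Creld2, which encodes an ER protein with EGF-like domains that is induced by ER stress, had 14, 18.8 and 21.3 CPM in knockout and 15.6, 21.3 and 24.7 CPM in Tln2-null ventricles. Its log2 fold change was -0.15 ± 0.09, and that of Pdia4 -0.03 ± 0.10. Calr encodes calreticulin, the calcium-binding lectin chaperone that mouse embryos need for heart development. Its levels were 311, 338 and 377 CPM in knockout and 302, 338 and 428 CPM in Tln2-null ventricles, so the medians were alike, with a log2 fold change of -0.04 ± 0.07.

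Xbp1 encodes the transcription factor that Ire1 activates by splicing, and gene totals do not tell its spliced form. Its levels were 66.1, 81.3 and 85.3 CPM in knockout and 71.5, 84.3 and 104 CPM in Tln2-null ventricles (log2 fold change -0.11 ± 0.07). Herpud1, which encodes an ER membrane protein of the degradation complex around the ubiquitin ligase Hrd1, had 195, 421 and 583 CPM in knockout and 225, 371 and 729 CPM in Tln2-null ventricles. Its means were 413 ± 119 and 410 ± 162 CPM (SD, n = 8 each), and its log2 fold change of 0.01 ± 0.23 had the widest error of the 10, with an interval of 2 SE on each side running between -0.45 and 0.46. The genotypes overlapped for all 10 genes. Overlap was not counted over all genes tested, so nothing is read from this count.

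**Figure D1:**
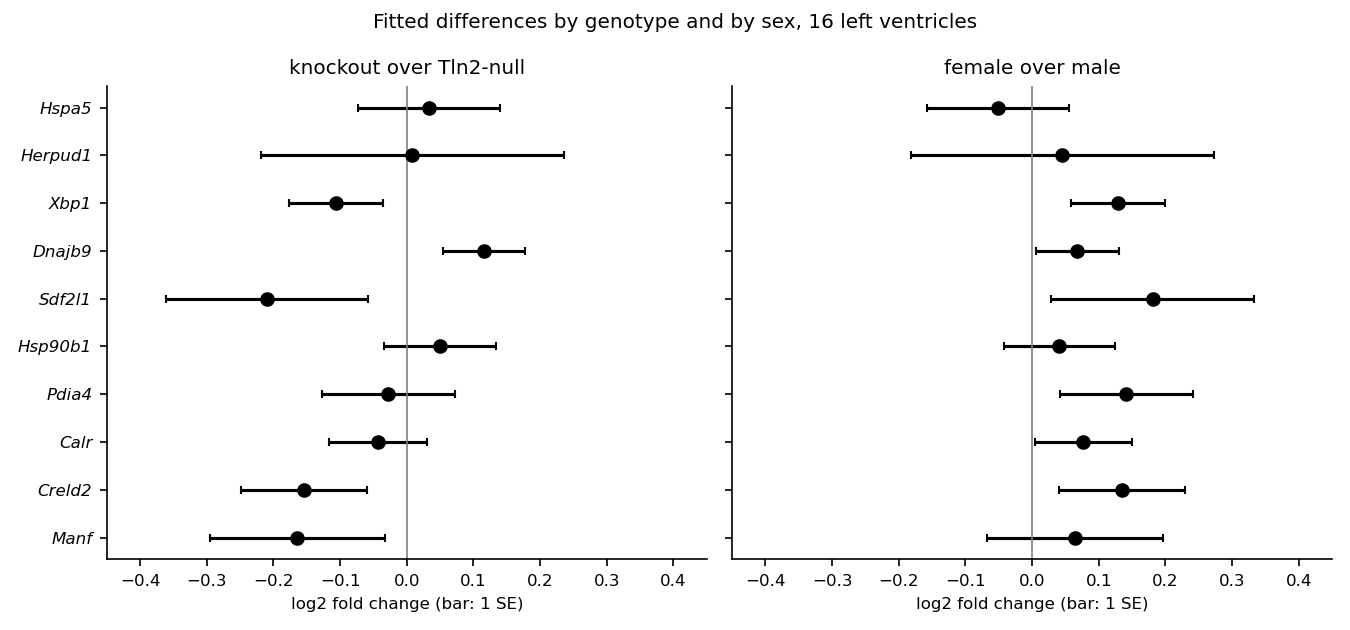
Fitted log2 fold changes of the 10 genes, knockout over Tln2-null on the left and female over male on the right, with bars of 1 SE over 16 libraries. No gene passed in either comparison, and Herpud1 has the longest bars in both.

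Herpud1 varied far more between mice than the other abundant members. Its coefficient of variation over the 16 libraries was 33.3%, rank 29 among the 2010 genes with a mean of at least 100 CPM, whose median was 8.54%. Hspa5 followed at 15.8% (rank 239), Hsp90b1 at 12% (rank 454) and Calr at 10.7% (rank 601). Among the scarcer members Sdf2l1 (23.3%) and Manf (20.2%) varied most and Dnajb9 (9.27%) least. The highest Herpud1 level was 3.74 times its lowest, against 1.71 times for Hspa5 and 1.37 times for Dnajb9.

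The spread of Herpud1 followed the number in the sample titles. In order of number, the 8 knockout libraries (numbers 3, 4, 8, 11, 12, 15, 16 and 18) had 493, 494, 583, 335, 367, 393, 449 and 195 CPM of Herpud1. The 8 Tln2-null libraries (numbers 1, 2, 5, 6, 9, 10, 13 and 14) had 729, 511, 470.2, 424, 317, 293, 306 and 225 CPM. In Tln2-null ventricles the level was lower at each next number with 1 exception, number 13, and in knockout ventricles the order was looser, with number 16 above number 11. The lowest Herpud1 level in the 7 libraries numbered 8 or lower was 424 CPM and the highest in the 9 libraries numbered 9 or higher was 449 CPM, a small overlap.

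In a fit with genotype and sex as further terms, Herpud1 was lower by 0.79 ± 0.15 on the log2 scale (a slope of -0.79) per 10 title numbers, a fold of 0.578. The largest slopes upward were those of Hspa5 and Manf (0.24 ± 0.09 and 0.24 ± 0.13), Hsp90b1 (0.23 ± 0.07) and Pdia4 (0.23 ± 0.09). Xbp1 (0.13 ± 0.07), Dnajb9 (0.11 ± 0.06) and Sdf2l1 (0.10 ± 0.16) had smaller ones, and Calr (0.01 ± 0.08) and Creld2 (0.01 ± 0.10) were near 0. The members' median was 0.12 per 10 numbers, against -0.00 over all genes tested, whose middle 50% lay between -0.12 and 0.10.

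Of the 10 genes, 2 passed edgeR's quasi-likelihood test on this slope, Hsp90b1 upward and Herpud1 downward, and 4 had an unadjusted p under 0.05. Over all genes 874 of 13775 (6.34%) passed, 407 upward (2.95%) and 467 downward (3.39%), and 3330 had an unadjusted p under 0.05. Since the list was made with these slopes in view, nothing is read from the members' count. The same holds for whether a single member passed, here or with libraries left out. Herpud1 passed without each of the 16 libraries in turn, with slopes between -0.91 and -0.66, but not without both libraries whose clock genes stood apart (-0.61 ± 0.15, adjusted p = 0.0587 by the same test), nor when Tln2-null replicate 5 was left out as well (-0.58 ± 0.15, adjusted p = 0.0800). Hsp90b1 passed in 5 of the 16 omissions, those of knockout replicates 4 and 5 and of Tln2-null replicates 2, 6 and 7, with slopes between 0.17 and 0.28 over all 16, and its slope was 0.16 ± 0.07 without both clock libraries. Hspa5 passed only when Tln2-null replicate 2 was left out (0.33), and its slope was 0.16 ± 0.10 without both clock libraries.

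**Figure D2:**
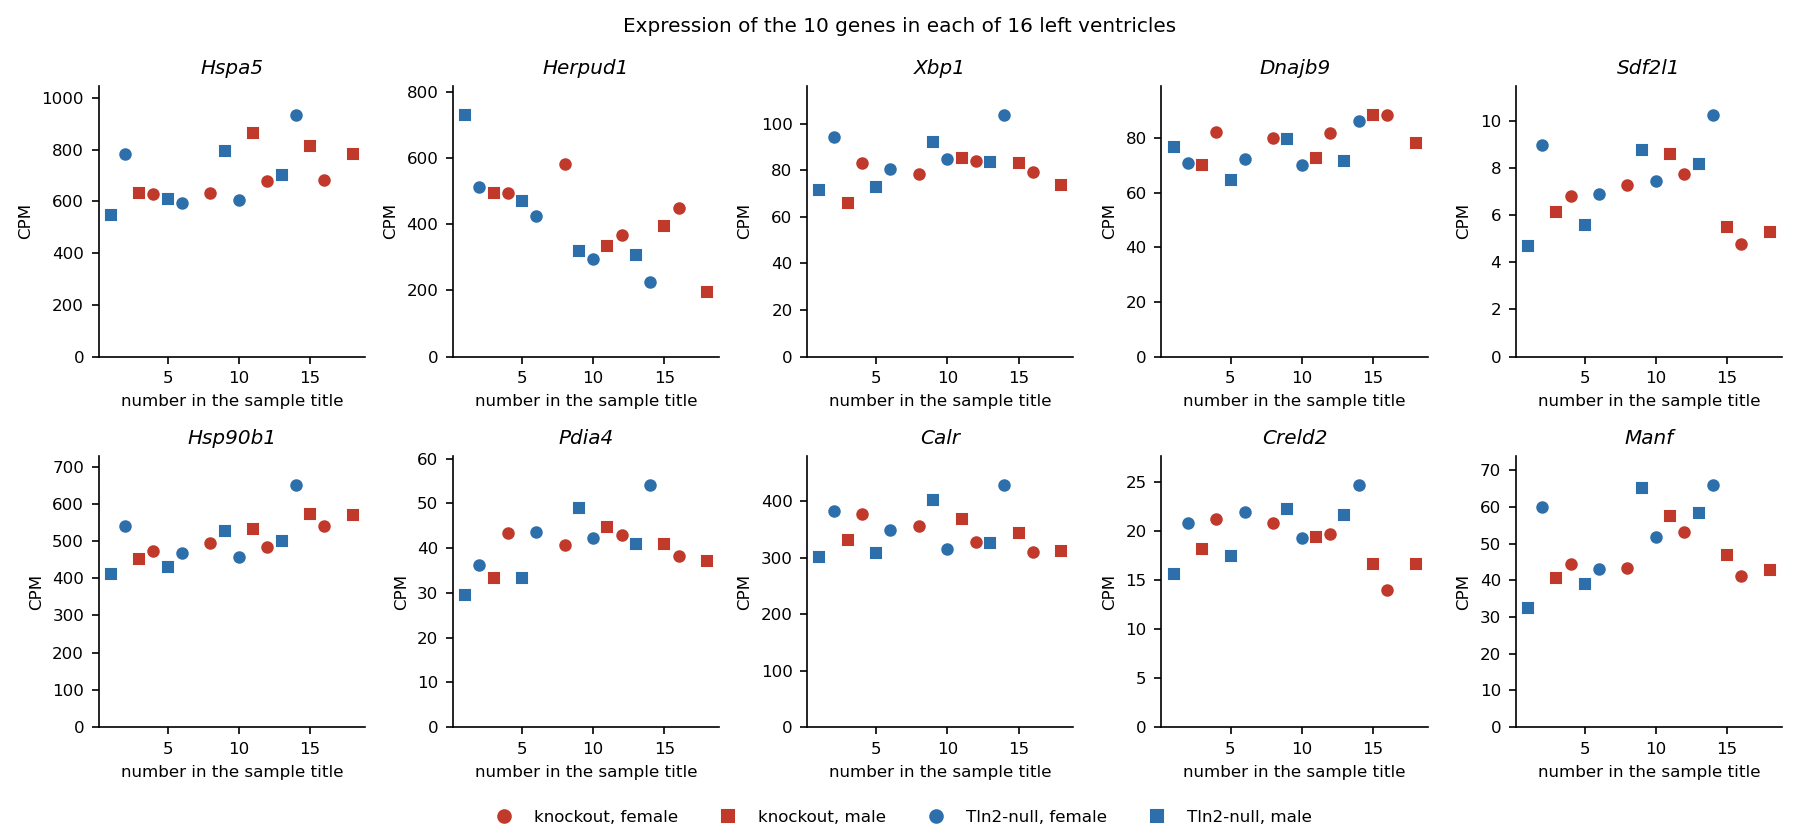
CPM of each of the 10 genes (vertical axis, linear and starting at 0) against the number in the sample title, for 8 knockout (red) and 8 Tln2-null (blue) left ventricles, females as circles and males as squares. Herpud1 runs down to 195 CPM at number 18, with 729 CPM at number 1, while Hspa5 is highest at number 14 (934 CPM).

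Both libraries whose clock genes stood apart carried the 2 lowest Herpud1 levels, 195 CPM in knockout replicate 8 and 225 CPM in Tln2-null replicate 8, and the lowest of the other 14 was 293 CPM. Tln2-null replicate 8 also had the highest level of 8 of the 10 genes: Hspa5, Xbp1, Sdf2l1, Hsp90b1, Pdia4, Calr, Creld2 and Manf. Outside Tln2-null replicate 5, it also had the highest Atf3 (25.1 CPM) and Hspa1a (8.91 CPM). Tln2-null replicate 5 had the next highest level of Pdia4 (49.0 CPM), Calr (403 CPM), Creld2 (22.3 CPM) and Manf (65.2 CPM). It did not for Hspa5, Xbp1, Sdf2l1 and Hsp90b1. At the other end, Tln2-null replicate 1, with the lowest number, was lowest for 6 of the 10 (Hspa5, Sdf2l1, Hsp90b1, Pdia4, Calr and Manf) and highest for Herpud1. The parts of the clock and stress gene differences in these levels were not tested beyond leaving the libraries out. In knockout replicate 8 the chaperone genes were mixed. Hspa5 (781 CPM) and Hsp90b1 (569 CPM) were above their knockout medians, and Manf (42.9 CPM), Pdia4 (37.2 CPM) and Calr (311 CPM) were below theirs.

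The level of Herpud1 relative to Hspa5 differed widely between mice. The ratio of their CPM was highest at 1.33 in Tln2-null replicate 1, the library numbered 1, and lowest at 0.25 in knockout replicate 8 and 0.241 in Tln2-null replicate 8. The other libraries were at 0.388 or above. By genotype the ratio averaged 0.601 ± 0.227 in knockout and 0.629 ± 0.335 in Tln2-null ventricles (SD, n = 8 each).

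**Figure D3:**
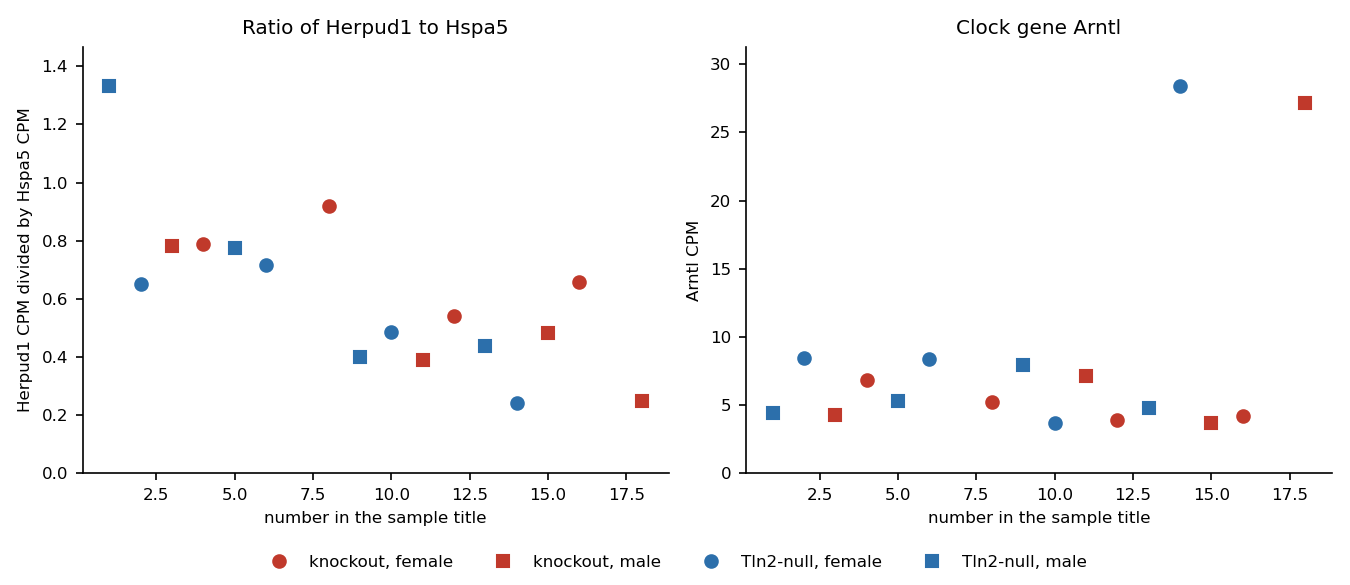
Herpud1 CPM divided by Hspa5 CPM (left) and CPM of the clock gene Arntl (right) against the number in the sample title, 8 knockout (red) and 8 Tln2-null (blue) libraries, females as circles and males as squares. The libraries at numbers 14 and 18 have the lowest ratios, 0.241 and 0.25, and the highest Arntl levels, 28.4 and 27.1 CPM.

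Within each genotype Herpud1 kept a slope below 0, at -0.51 ± 0.18 per 10 numbers in the 8 knockout libraries and -1.05 ± 0.10 in the 8 Tln2-null libraries. Hspa5 (0.18 ± 0.08 in knockout, 0.28 ± 0.16 in Tln2-null), Hsp90b1 (0.20 ± 0.06 and 0.24 ± 0.12), Dnajb9 (0.13 ± 0.07 and 0.10 ± 0.10) and Xbp1 (0.07 ± 0.09 and 0.19 ± 0.11) had slopes above 0 in both genotypes, with differences within the errors. The other slopes lay further apart: Pdia4 was at 0.03 ± 0.10 in knockout and 0.46 ± 0.12 in Tln2-null ventricles, Manf at 0.04 ± 0.12 and 0.47 ± 0.19, and Calr at -0.12 ± 0.08 and 0.14 ± 0.12. Like Calr, Sdf2l1 (-0.23 ± 0.20 in knockout, 0.44 ± 0.20 in Tln2-null) and Creld2 (-0.24 ± 0.12 and 0.28 ± 0.12) had slopes of opposite sign in the genotypes. In the knockout libraries numbered 15, 16 and 18, Sdf2l1 was at 5.50, 4.78 and 5.27 CPM and Creld2 at 16.7, 14 and 16.7 CPM. These were the 3 lowest knockout levels of Sdf2l1 and of Creld2.

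None of the 10 genes passed the test that the slope differs between genotypes (edgeR's quasi-likelihood test, adjusted p of 0.893 or more). Over all genes 0 of 13775 (0%) passed with edgeR, 688 had an unadjusted p under 0.05, and DESeq2 passed 0. Creld2, Pdia4 and Sdf2l1 had an unadjusted p under 0.05, with differences of the slope, knockout minus Tln2-null, of -0.52 ± 0.17, -0.43 ± 0.16 and -0.65 ± 0.29 per 10 numbers. The difference for Herpud1 was 0.55 ± 0.28. Without both clock libraries 69 genes passed, with none of the 10 among them.

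**Figure D4:**
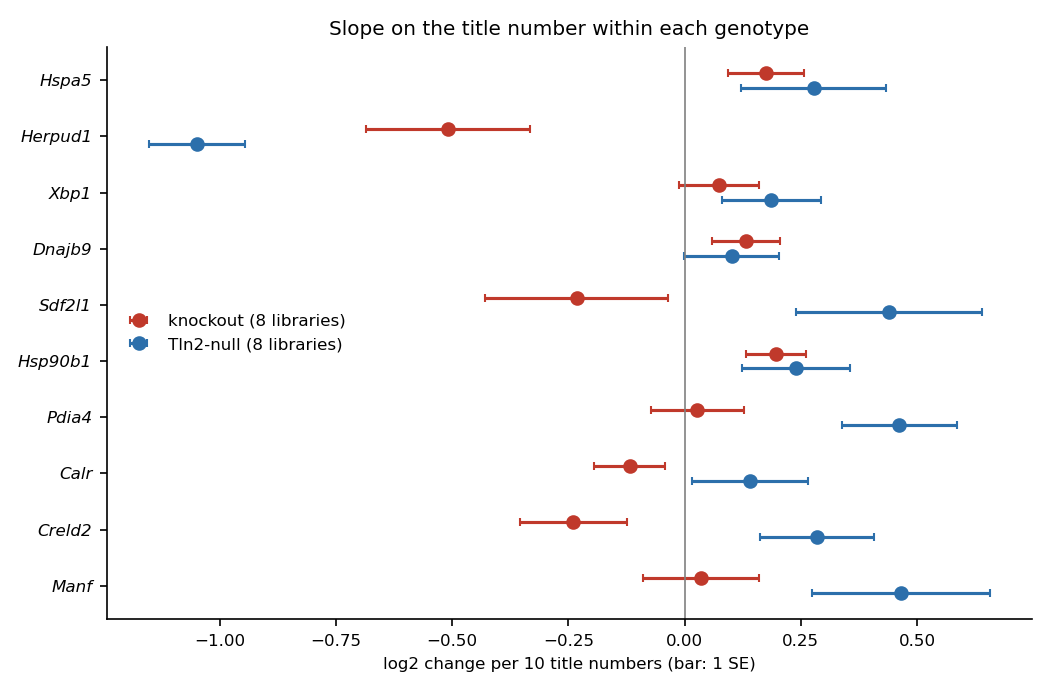
Log2 change per 10 title numbers of each gene, fitted with sex within the 8 knockout libraries (red) and within the 8 Tln2-null libraries (blue), with bars of 1 SE. Herpud1 lies below 0 in both, and Sdf2l1, Calr and Creld2 lie below 0 in knockout and above 0 in Tln2-null libraries.

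With the title number as a further term of the genotype comparison, the Herpud1 log2 fold change was 0.33 ± 0.16 in place of 0.01 ± 0.23, and it did not pass (adjusted p = 0.99998 by edgeR's quasi-likelihood test). The numbers of the knockout libraries began at 3 and ended at 18, against 1 and 14 for the Tln2-null libraries, so number and genotype were not balanced.

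None of the 10 genes passed the test of a difference between female and male ventricles, which the choice of the list did not use (edgeR's quasi-likelihood test, adjusted p = 0.9998 for each). None had an unadjusted p under 0.05, and DESeq2 passed none of them. Over all genes 12 of 13775 (0.0871%) passed, with 508 at an unadjusted p under 0.05. Log2 fold changes of female over male ran between -0.05 ± 0.11 for Hspa5 and 0.18 ± 0.15 for Sdf2l1. Herpud1 had 418 ± 118 CPM in females and 405 ± 162 CPM in males (SD, n = 8 each), with a log2 fold change at 0.05 ± 0.23. Xbp1 had 86.0 ± 8.68 CPM in females and 78.5 ± 8.73 CPM in males, with the lowest unadjusted p of the 10 in this comparison (0.0830).

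The genotype difference of Herpud1 was of opposite sign in the sexes, within wide errors. In females Herpud1 averaged 473 ± 90.2 CPM in knockout and 363 ± 128 CPM in Tln2-null ventricles (SD, n = 4 each), with a log2 fold change at 0.38 ± 0.23. In males it averaged 354 ± 125 CPM in knockout and 456 ± 197 CPM in Tln2-null ventricles, a log2 fold change of -0.36 ± 0.30. Hspa5 showed the reverse, with -0.16 ± 0.13 in females and 0.22 ± 0.13 in males. The difference between the sexes was 0.74 ± 0.43 for Herpud1 and -0.38 ± 0.20 for Hspa5, and it did not pass for any of the 10 genes (edgeR's quasi-likelihood test, adjusted p of 0.980 or more, none with an unadjusted p under 0.05). Over all genes 0 of 13775 (0%) passed with edgeR, 588 had an unadjusted p under 0.05, and DESeq2 passed 0.

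Library by library, many pairs of the chaperone genes varied together, and most of these genes varied inversely to Herpud1, some of them weakly. Correlations of log2 CPM over the 16 libraries are given as a description, since the libraries share the scaling and the differences just described. The 36 pairs without Herpud1 had Pearson's r between -0.11 and 0.92 with a median of 0.65, and the 9 pairs with Herpud1 had r between -0.64 and -0.13 with a median of -0.42. Hspa5 and Hsp90b1 had the highest r of these pairs (r = 0.92, Spearman's rho = 0.89), and it was 0.91 without the 2 libraries farthest from the median of Hspa5. Next by r came Sdf2l1 with Manf (r = 0.90, rho = 0.91), Sdf2l1 with Creld2 (r = 0.89, rho = 0.82) and Xbp1 with Manf (r = 0.86, rho = 0.95), the last of which had the highest rho. Without the 2 libraries farthest from the median of the first-named gene, r was 0.88, 0.84 and 0.90. Other pairs fell further by the same omission. Hsp90b1 went from 0.62 to 0.22 with Pdia4, from 0.58 to 0.24 with Calr and from 0.23 to -0.28 with Creld2. Hspa5 with Sdf2l1 went from 0.52 to 0.27. Leaving Herpud1 aside, the r of Dnajb9 ran between -0.11 with Creld2 and 0.58 with Hsp90b1, and was 0.41 with Pdia4 and 0.37 with Hspa5. The 2 libraries farthest from the median of Herpud1 were those whose clock genes stood apart. Without them the r of Herpud1 went from -0.13 to 0.08 with Dnajb9, from -0.64 to -0.41 with Hsp90b1 and from -0.21 to -0.19 with Calr. Over all 16 libraries rho with Calr was -0.09. By the same omission r moved further below 0 with Manf (-0.58 to -0.75), Pdia4 (-0.59 to -0.72), Sdf2l1 (-0.37 to -0.55), Xbp1 (-0.42 to -0.53) and Creld2 (-0.28 to -0.36). For Hspa5 and Herpud1 r was -0.63 and rho -0.48. It was -0.53 without the 2 libraries farthest from the median of Hspa5 and -0.49 without both clock libraries.

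With the means of genotype and sex taken out, Hspa5 was most like its fellow chaperone gene Hsp90b1 among the 10 (r = 0.95), followed by Xbp1 (0.91). Among 12000 genes outside the 10 with a mean of at least 2 CPM, Hspa5 was most like Sh3kbp1 (r = 0.93), C130080G10Rik (0.91), Ssh2 (0.91), Bpnt1 (0.91), Atg5 (0.90) and E330017L17Rik (0.89). By the same measure, among these 12000 genes, Herpud1 was most like Tbx5 (r = 0.94), which encodes a cardiac transcription factor, Slc31a2 (0.94), Adam22 (0.93), Shld1 (0.93), Fbxo31 (0.93) and the lipid droplet gene Plin4 (0.92). Tbx5 ran between 24.4 and 71.0 CPM and Plin4 between 231 and 574 CPM. These likenesses are over the same libraries and carry no test.

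Counts of other genes of the ER folding pathway that passed on the title number are given against the 6.34% of all genes tested. Of 32 further ER chaperones and folding enzymes, 0 passed upward and 1 downward on edgeR's quasi-likelihood test, with a median slope of 0.04 per 10 numbers. The 1 was Prkcsh, the beta subunit of glucosidase II, at -0.22 ± 0.05, and the disulfide isomerase Pdia3 (0.24 ± 0.08), Canx (0.14 ± 0.06) and Creld1 (-0.17 ± 0.07) did not pass. Of 22 genes of ER-associated degradation, the process in which Herpud1 acts, 0 passed upward and 1 downward: Aup1 at -0.18 ± 0.05. The Hrd1 ligase gene Syvn1 was at -0.19 ± 0.07, Ube2g2 at -0.17 ± 0.06 and Nploc4 at -0.12 ± 0.06, none of which passed.

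None of the 18 sensors and transcription factors of the response passed with edgeR, and their median slope was -0.01. The lowest p in that list was that of Chac1, a glutathione-degrading enzyme induced through Atf4, at -0.97 ± 0.31 (adjusted p = 0.0665 by edgeR's quasi-likelihood test). Chac1 ran between 2.19 and 19.7 CPM, and Ern1, which encodes Ire1, had a slope of -0.26 ± 0.10 and Trib3 one of -0.26 ± 0.12. Of 34 genes of translocation and the early secretory pathway 1 passed upward (Spcs3, a signal peptidase subunit, 0.24 ± 0.05) and 1 downward (Srp54a, of the signal recognition particle, -0.44 ± 0.10), with a median of 0.03.

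Outside the ER, 0 of 12 cytosolic heat shock genes passed (median 0.07), and Hsp90aa1 was at 0.27 ± 0.12. Of 15 clock genes 1 passed upward, Npas2 at 0.76 ± 0.19, and 0 downward, with a median of -0.15 and with Per2 at -0.74 ± 0.23 and Ciart at -0.83 ± 0.29. The clock slopes were above 0 for 5 genes and below 0 for 10, so the median is a poor summary of them. Arntl, not among the 4 of lowest p, had the slope farthest from 0, at 1.06. Both libraries whose clock genes stood apart had high numbers, 14 and 18. By genotype none of the genes in these 6 lists passed edgeR's quasi-likelihood test. Markers of B and plasma cells, which secrete much protein and express many ER chaperones, summed to 15.9 ± 3.53 CPM in knockout and 17.8 ± 4.28 CPM in Tln2-null ventricles, and 1 of the 6 tested passed upward on the title number. Of these 6, 4 had slopes above 0 and 2 below, with a median of 0.58 per 10 numbers. Of the fibroblast markers 1 of 9 passed upward and 0 downward, and of the endothelial markers 1 of 6 passed upward and 1 downward, against 2.95% upward and 3.39% downward over all genes. Slopes of the fibroblast markers were above 0 for 4 and below 0 for 5, with a median of -0.09 per 10 numbers. Those of the endothelial markers were above 0 for 2 and below 0 for 4, with a median of -0.10. No marker of the remaining lists passed on the title number. Slopes were above 0 for 7 of 8 cardiomyocyte, 3 of 6 pericyte and smooth muscle, and 4 of 7 macrophage markers (medians 0.05, 0.00 and 0.00). They were above 0 for 0 of 2 adipocyte markers tested (median -1.26) and 2 of 2 atrial markers tested (median 0.22). The part of these cell types in the slopes of the chaperone genes was not tested.

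**Figure D5:**
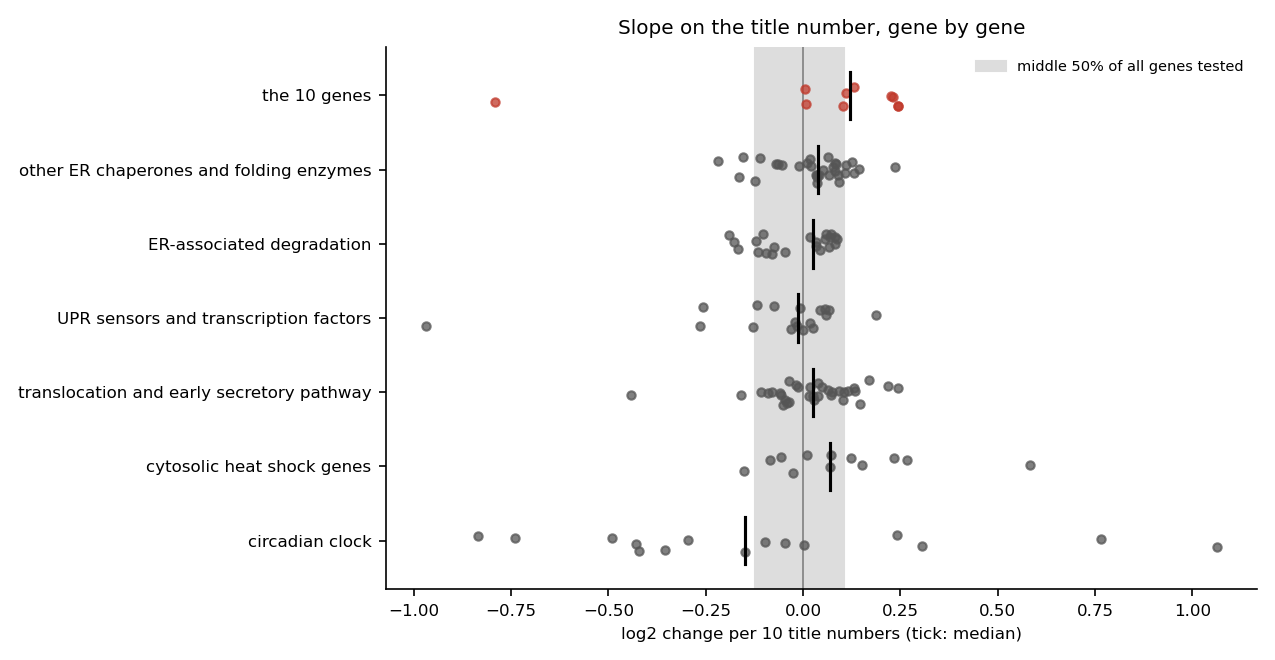
Log2 change per 10 title numbers of each tested gene of the 10 (red) and of 6 lists of other genes (grey), with a black tick at each list's median and a grey band over the middle 50% of all genes tested, -0.12 to 0.10. Herpud1 is the red point at -0.79, far below the other 9.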

How the data were processed

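The authors deposited whole counts per gene symbol for the 16 libraries, and a second table whose values are a normalized signal. Tested here, that deposited signal equals the count divided by 1 size factor per library, within 0.001 for 100% of values of the 16384 symbols matched. The RNA came from TRIzol lysates and a column kit, per the labels' protocols, and libraries were directional. DRAGEN, DESeq2 and mm10 are named in the submitters' processing notes, without roles or versions and with no annotation named. The count table had 24982 entries, 5760 of them at 0 in every library, and no row without a gene (0).

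Counts were analysed with edgeR 4.0.16 in R 4.3.3 (limma 3.58.1). Genes were kept by filterByExpr on genotype and sex (13775), libraries were scaled by TMM, and quasi-likelihood tests were adjusted by the Benjamini-Hochberg method over all 13775 genes and called under 0.05. Terms were genotype and sex, to which the title number, the product of genotype and sex, or the product of genotype and number was added. SE was worked back as the size of the log2 fold change divided by the root of the F statistic. CPM in correlations have a prior count of 2. Means are given with SD over mice. Totals of 11161766 to 19221673 counts make a count of 3 worth at most 0.268 CPM, a limit that covers counting error only. Each mouse is 1 sample. Replicate numbers 1 to 8 per genotype were given here in the order of the records. The edgeR fits by genotype and by title number were tested on simulated counts, and the other fits and steps were not.

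The 10 genes, the gene lists, and the rule for named genes were chosen with earlier results of these data known. The rule names all 10, up to 4 genes of lowest p per list on the title number, and the 6 genes most like Hspa5 and Herpud1. Alternatives were DESeq2 1.42.0 and its size factors, limma on log2 of the deposited signal plus 1, other filters and covariates, the rank of the number, and the omission of libraries. Promoters were read from RefSeq GRCm38.p6, and gene models from GENCODE M21.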

Additional observations from a re-analysis of the deposited data

How the results depend on the processing

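No paired analysis was possible because the labels give no replicate numbers, so mice of the 2 genotypes share none. None of the 10 genes passed in any alternative for genotype, sex or either interaction. Over all genes, the genotype count of 0 was 1 without a filter on low counts, 17 with DESeq2, 5 without both clock libraries, 4 without these and Tln2-null replicate 5, and between 0 and 7 when 1 library was left out (7 without knockout replicate 8, 3 without Tln2-null replicate 1, 1 without Tln2-null replicate 4). The count of 874 on the title number was 1379 with DESeq2, 1379 without genotype and sex as terms, 187 without both clock libraries, 50 without the 3 libraries, 219 without the 4 females with Y-linked counts, 5 within the knockout and 6 within the Tln2-null libraries, and between 229 (without knockout replicate 8) and 1162 (without Tln2-null replicate 7) with 1 library left out. The causes were not tested. The count of 12 by sex was 21 with DESeq2 and between 10 and 14 with 1 library left out. The count of 0 for the difference of slopes was 69 without both clock libraries, 40 without the 3 libraries, and between 0 and 1 with 1 library left out. The omissions of the 4 females and of the 3 libraries were chosen after seeing the data. That of both clock libraries was planned, but it rests on clock gene levels in these same libraries. Besides the omissions given above, Hsp90b1 did not pass on the title number without a filter on low counts (adjusted p = 0.0639 by edgeR's quasi-likelihood test) or without the 4 females (adjusted p = 0.0794), and Herpud1 passed within the Tln2-null libraries alone and not within the knockout libraries alone. Among the 10 genes, no change that had passed turned its sign under these alternatives. Signs of the other genes were not compared.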
